A study of Homo sapiens with 15 samples.

Results

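The mitochondrial ribosomal protein genes were taken as every gene whose symbol begins with MRPL or MRPS followed by a number and at most 1 letter from A to C. The deposited table held 78 such genes among 22705 genes that could be read. Here 51 were classed with the large ribosomal subunit and 27 with the small subunit. Membership rests on the symbol alone, and the presence of each protein in the particle was not checked. Their transcripts were followed in DLD1 cells, an established human line from a colorectal cancer, in 5 groups of 3 poly(A) RNA-seq libraries. KO cells lack USP7, a deubiquitinase, and carry a GFP-USP7 transgene that doxycycline switches on, and these libraries had no doxycycline. The day 1, day 3 and day 9 groups are the same KO cells given 1 µg/ml doxycycline for 1, 3 or 9 days, and WT cells are the untreated parental line. The transgene sits behind a tetracycline-responsive promoter whose activator is driven by the EF1α promoter. The labels do not say whether the KO line is a single clone. They call the libraries biological triplicates without naming separate cultures. The spread behind every p-value is that among these libraries and may be technical.

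Mitochondrial ribosomes sit in the mitochondrial matrix and make the few respiratory-chain proteins that mitochondrial DNA encodes. Every one of their proteins is encoded in the nucleus, made in the cytosol and imported, while their ribosomal RNA comes from mitochondrial DNA. Many of the proteins have a bacterial counterpart and the others were added in the mitochondrial lineage. Doxycycline belongs to the tetracyclines, which bind bacterial-type ribosomes and can slow mitochondrial translation, so in these libraries the drug and the return of USP7 cannot be told apart. WT cells with doxycycline were not analysed here.

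The members' promoters are shown because they show what sequence the family's start regions share and do not share. RefSeq promoters of build GRCh38.p14 were matched for 69 members. MRPL2, MRPL10, MRPL13, MRPL15, MRPL21, MRPL23, MRPL35, MRPS28 and MRPS36 were not matched. Each sequence below runs 5′ to 3′ on the gene's strand from 250 bases before the transcription start to 30 bases after it. The first 4 belong to members that were higher in KO cells and lower at days 1, 3 and 9 of doxycycline. The last 2, MRPL3 and MRPL32, hold motifs that are frequent in the family. They were also higher in KO cells, and MRPL3 was lower at days 3 and 9 and MRPL32 at day 9. Capitals mark letters of the searched motifs, which were the ETS core CCGGAAG, the YY1 core AAGATGGCG, the NRF1 core GCGCATGCG, the E-box CACGTG and the SP1 core GGGCGG, each on both strands.
MRPS9, chr2:105037819-105038098, plus strand: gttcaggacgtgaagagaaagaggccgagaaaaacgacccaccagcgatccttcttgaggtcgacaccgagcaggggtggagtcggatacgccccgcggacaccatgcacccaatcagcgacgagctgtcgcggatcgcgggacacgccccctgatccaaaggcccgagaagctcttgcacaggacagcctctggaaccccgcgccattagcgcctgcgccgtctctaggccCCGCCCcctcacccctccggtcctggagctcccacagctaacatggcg
MRPL50, chr9:101398589-101398868, minus strand: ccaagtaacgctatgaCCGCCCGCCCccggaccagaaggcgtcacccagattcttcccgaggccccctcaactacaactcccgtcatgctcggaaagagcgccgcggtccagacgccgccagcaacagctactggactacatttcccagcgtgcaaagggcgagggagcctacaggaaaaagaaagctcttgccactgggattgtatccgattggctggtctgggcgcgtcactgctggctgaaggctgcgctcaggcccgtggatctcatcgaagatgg
MRPS25, chr3:15065286-15065565, minus strand: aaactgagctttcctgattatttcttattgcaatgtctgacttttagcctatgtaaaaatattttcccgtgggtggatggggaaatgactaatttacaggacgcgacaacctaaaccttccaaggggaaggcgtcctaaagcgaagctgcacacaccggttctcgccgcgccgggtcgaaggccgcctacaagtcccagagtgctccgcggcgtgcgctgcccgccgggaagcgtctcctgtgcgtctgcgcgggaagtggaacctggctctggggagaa
MRPS35, chr12:27710582-27710861, plus strand: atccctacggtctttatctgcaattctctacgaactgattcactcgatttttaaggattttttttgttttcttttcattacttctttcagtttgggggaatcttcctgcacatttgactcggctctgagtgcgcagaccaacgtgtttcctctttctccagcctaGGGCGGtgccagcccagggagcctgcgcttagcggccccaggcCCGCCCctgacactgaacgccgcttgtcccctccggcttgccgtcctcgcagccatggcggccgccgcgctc
MRPL3, chr3:131502942-131503221, minus strand: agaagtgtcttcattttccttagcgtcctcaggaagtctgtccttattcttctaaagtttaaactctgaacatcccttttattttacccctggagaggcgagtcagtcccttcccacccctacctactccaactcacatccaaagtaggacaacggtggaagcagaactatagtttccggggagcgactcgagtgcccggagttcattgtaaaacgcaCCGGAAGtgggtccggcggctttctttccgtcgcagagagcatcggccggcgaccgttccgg
MRPL32, chr7:42932126-42932405, plus strand: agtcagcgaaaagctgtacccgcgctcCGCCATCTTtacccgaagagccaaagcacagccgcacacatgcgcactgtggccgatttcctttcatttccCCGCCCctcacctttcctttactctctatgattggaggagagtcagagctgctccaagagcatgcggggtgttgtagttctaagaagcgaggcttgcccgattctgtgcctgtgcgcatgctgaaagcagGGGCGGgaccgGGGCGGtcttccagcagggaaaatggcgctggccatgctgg

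Over windows reaching 50 bases past the start, the ETS core was present in 29 of 69 member promoters (42.0%), against 2060 of 10793 promoters of genes tested and 10.7% of all 27305 promoters. The YY1 core was present in 13 member promoters (18.8%), against 3.94% of promoters of tested genes and 1.85% of all promoters. Either of the pair was present in 38 member promoters (55.1%), against 12.1% of all promoters, and 4 member promoters held both without overlap between them. All promoters include those of genes not tested, and the share for either motif was not computed for promoters of tested genes. The NRF1 core was present in 4.35% of member promoters and 3.68% of those of tested genes, the E-box in 8.7% and 10.0%, and the SP1 core in 60.9% and 69.8%. The MRPS9, MRPS25 and MRPS35 windows held neither the ETS nor the YY1 letters, and MRPS25 held none of the 5 motifs. MRPL3 held the ETS core and MRPL32 the YY1 core, and MRPL50 held a YY1 core that runs past the end of the printed stretch and is not in capitals. Among the 25 matched members that were higher in KO than in WT cells, 9 held the ETS core (36.0%) and 3 the YY1 core, compared with 20 (45.5%) and 10 (22.7%) of the other 44.

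Values are normalized read counts as the authors deposited them. Total normalized counts were 14741094 to 15347043 per library. Within each library all values are whole multiples of a step of 0.99 to 1.007 (tolerance 0.01), and these multiples sum to 14813145 to 15418146. USP7 was lowest in KO libraries, at 1369.6 to 1403.1, with 7888.4 to 8635.0 at day 1, 7491.2 to 8173.5 at day 3, 4402.4 to 5016.5 at day 9 and 3372.6 to 3420.6 in WT libraries. KO libraries thus kept USP7 reads, and all doxycycline groups stood above WT libraries. The source of the USP7 reads in KO libraries was not tested. The colorectal epithelial markers EPCAM, CDH1, CDX2, KRT8, KRT18 and VIL1 were present in every group, whereas KRT20 was at 0 in the KO libraries. CDX1, also an epithelial marker, was not in the table. The single leukocyte marker in the table summed to at most 2 normalized counts. The 2 fibroblast markers in the table, COL1A1 and PDGFRB, summed to 58.8 to 130.2 per library. The single endothelial marker, VWF, was at 21.9 to 56.7 and was called higher in KO than in WT cells (log2 change 0.7). Day 1 replicate 1 stood apart from its group. It had a weight of -0.67 on the first component of the deviations within groups, which held 20.9% of that variance, while day 1 replicates 2 and 3 had 0.42 and 0.25. Day 9 replicate 1 had the next most negative weight, -0.34. Counts below are also given without this pair of libraries, a choice made after the data were seen. The column names of the table carry 1 project code for WT, KO and day 1 libraries and another for day 3 and day 9 libraries, so comparisons of day 3 or day 9 with KO or WT cells cannot be told apart from that code.

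Of the 78 members, 77 passed the filter on low values (at least 10 normalized counts in at least 3 libraries). MRPS24, which codes for a small subunit protein with a bacterial counterpart, did not pass, with 1.0 to 9.9 normalized counts in any library. Of its exon bases, 23.2% are shared with the read-through gene URGCP-MRPS24, so its level is uncertain. Per kilobase of exon, the level of the members in WT cells ran from 2.3 (MRPS24) through a median of 279.6 to 1088.0 normalized counts (MRPS34). Other low members also share exon bases with a gene on the same strand, among them MRPL38 (37.5%), MRPL53 (45.2%) and MRPS17 (21.8%). However, MRPL33 shares 21.1% and stood at 359.3, and MRPL23, at 46.5, shares 2.9% with an antisense gene only. The authors' annotation is not stated, so the exon lengths used may differ from theirs. The part of shared exons and exon length in this range was not tested. MRPL51 came next to MRPS34, at 1058.1 ± 37.6 per kilobase in WT cells (SD, n = 3), and the difference between the pair was smaller than this spread. NCAPD2 on the opposite strand shares 31.3% of the exon bases of MRPL51.

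Loss of USP7 was accompanied by higher levels of many members and lower levels of a few. In KO against WT cells, 29 of 77 members were higher (37.7%, against 24.8% of all 15134 genes tested) and 6 were lower (7.79%, against 24.8% of all genes), at a Benjamini-Hochberg adjusted p under 0.05 in limma on log2(value + 1). The median log2 change of the members was 0.12, against 0.0 for all genes tested. The changes were small for most members, with 19 of the 29 under 0.3 on the log2 scale and a median of 1.2-fold. By subunit, 19 of 51 large subunit members (37.3%) and 10 of 26 small subunit members (38.5%) were higher. Among the large subunit members, 14 of 30 with a bacterial counterpart and 5 of 21 without were higher. In the small subunit the counts were 6 of 15 and 4 of 11. The authors' deposited table gave 28 higher and 5 lower at the same threshold. Without WT replicate 1 or KO replicate 2 the lower members numbered 3. Without day 1 replicate 1 and day 9 replicate 1, 37 members were higher and 8 lower, against 29.4% and 28.1% of all genes. Fewer cells of a kind and less RNA per cell cannot be told apart in bulk RNA.

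**Figure D1:**
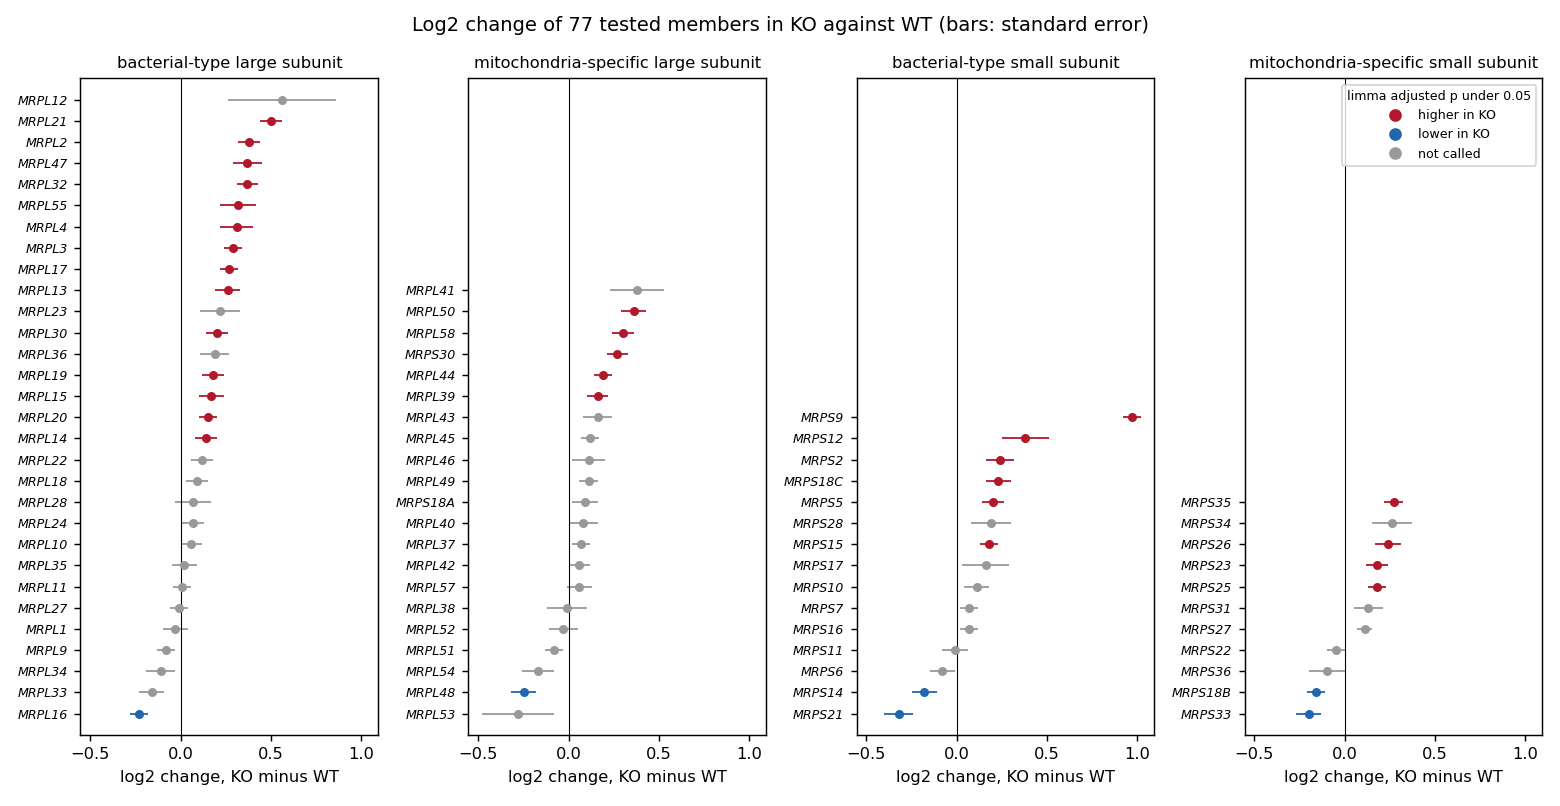
Log2 change in KO against WT cells (x axis, bars are the standard error from limma) for the 77 tested members, in 4 panels by subunit and by whether the protein has a bacterial counterpart. Red members were higher in KO cells (29), blue members lower (6) and grey members not called; MRPS9 at 0.97 stands apart from the rest.

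MRPS9, whose bacterial counterpart lies in the head of the small subunit beside the transfer RNA, had the largest change of any member. It stood at 2013.0, 1950.8 and 2014.4 normalized counts in KO cells, against 1000.7, 1030.9 and 1012.7 in WT cells. The lowest KO library was far above the highest WT library. The log2 change was 0.97 (SE 0.05, adjusted p = 7.3e-12, limma), or 1.96-fold, and it was 0.96 to 0.99 when any KO or WT library was left out. MRPS9 (ENSG00000135972) lies on chromosome 2, and an antisense gene covers 8.9% of its exon bases. In the GRCh38 annotation the nearest tested genes on one side and the other were TGFBRAP1, starting 292051 bases from the start of MRPS9, and TMEM182, at -2301078 bases. They had log2 changes of 0.10 (adjusted p = 0.0786) and -0.03 (adjusted p = 0.869) in KO against WT cells and were not called. Beyond TMEM182, MFSD9 at -2301095 bases was higher in KO cells by 0.29 (adjusted p = 0.00295), and SLC9A2 at -2418276 bases by 1.67 (adjusted p = 2.17e-15). SLC9A2, a sodium and proton exchanger, had -0.55, -1.02 and -1.06 at days 1, 3 and 9 against KO cells.

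Among large subunit members with a bacterial counterpart, MRPL21, whose bacterial counterpart binds ribosomal RNA, had the largest change of those called. It had 768.3, 717.6 and 689.7 normalized counts in KO cells, against 511.3, 521.5 and 500.4 in WT cells, and changed by 0.50 on the log2 scale (SE 0.06, adjusted p = 4.52e-07). MRPL2, whose bacterial counterpart lies near the peptidyl transferase centre, had 750.4, 769.4 and 718.6 in KO cells and 548.2, 595.4 and 574.0 in WT cells. In both genes the lowest KO library lay above the highest WT library. The log2 change of MRPL2 was 0.38 (SE 0.06, adjusted p = 4.6e-05), and 14.7% of its exon bases are shared with KLC4 on the opposite strand. MRPL32, a protein that a mitochondrial inner-membrane protease trims before it joins the ribosome, was higher in KO cells by 0.37 (adjusted p = 4.07e-05). MRPL47, at the exit of the peptide tunnel, was higher by 0.37 (SE 0.08, adjusted p = 0.000642). MRPL3, a core protein of the subunit, averaged 2887.2 in KO cells and 2361.8 in WT cells, a log2 change of 0.29 (adjusted p = 3.48e-05).

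The stalk proteins, which recruit translation factors to the large subunit, showed no call. MRPL10 and MRPL11, at the stalk base, had log2 changes of 0.06 (adjusted p = 0.401) and 0.01 (adjusted p = 0.842) in KO against WT cells. MRPL12, the stalk tip protein that also binds the mitochondrial RNA polymerase, had 190.3, 211.0 and 182.1 normalized counts in KO cells and 131.6, 133.9 and 128.3 in WT cells. These 6 libraries did not overlap, yet the log2 change of 0.56 was not called, with an SE of 0.30 in the fit over all 15 libraries (adjusted p = 0.139). In each doxycycline group a single library was low, 115.8 in day 1 replicate 1, 130.3 in day 3 replicate 3 and 106.5 in day 9 replicate 1, while the other 6 ran from 198.8 to 229.3. With only the 6 KO and WT libraries in the fit the adjusted p was 1.64e-05, and without day 1 replicate 1 and day 9 replicate 1 it was 0.000194. The same 3 libraries were the lowest of their groups for MRPS12, MRPS34, MRPL41, MRPL4 and MRPL55 as well, and the part of this in the results was not tested. A read-through gene on the same strand covers 68.2% of the exon bases of MRPL12, so its level is uncertain.

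Of the 21 large subunit members without a bacterial counterpart, 5 were higher and 1 was lower. MRPL50, a protein of this class, had 811.2, 741.5 and 833.0 normalized counts in KO cells, against 665.8, 600.4 and 589.9 in WT cells. The groups did not overlap, and the log2 change was 0.36 (SE 0.07, adjusted p = 0.000105). MRPL58, a peptidyl-tRNA hydrolase that frees stalled ribosomes and is built into the particle, had a log2 change of 0.30 (adjusted p = 0.000442). MRPS30, named as a small subunit protein but placed in the large subunit, had 0.27 (adjusted p = 0.00171). MRPL45, which anchors the ribosome to the inner membrane, had 0.12 and was not called (adjusted p = 0.0635). It was called without WT replicate 1 (0.14, adjusted p = 0.0445).

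In the small subunit, MRPS12, the counterpart of the bacterial protein that guards decoding accuracy, had 627.8, 685.8 and 657.9 normalized counts in KO cells and 473.4, 527.5 and 518.3 in WT cells. Its log2 change was 0.38 (SE 0.13, adjusted p = 0.0262). This call was lost, at adjusted p = 0.0512 to 0.0881, without WT replicate 1 or 3 or without KO replicate 2 or 3. MRPS12 shares 16.3% of its exon bases with SARS2 on the opposite strand. MRPS5, near the entry of the messenger RNA, had a log2 change of 0.20 (adjusted p = 0.0044), and MRPS35, which has no bacterial counterpart, had 0.27 (adjusted p = 7.79e-05). MRPS25, also without a bacterial counterpart, had 1293.5, 1333.7 and 1362.5 normalized counts in KO cells, against 1172.1, 1130.8 and 1215.6 in WT cells. All 3 KO values lay above the WT values, with a log2 change of 0.18 (adjusted p = 0.00472). NR2C2 on the opposite strand shares 22.2% of the exon bases of MRPS25.

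Of the 77 tested members, 6 were lower in KO cells, from both subunits. MRPS21, a small subunit protein, had 352.8, 371.3 and 377.2 normalized counts in KO cells and 477.4, 422.6 and 481.5 in WT cells, and its log2 change was -0.32 (SE 0.08, adjusted p = 0.00212). MRPL48 and MRPL16, of the large subunit, had -0.25 (adjusted p = 0.0072) and -0.23 (adjusted p = 0.00167). MRPL16 is the counterpart of a late-joining bacterial protein, and its highest KO library, 1216.8, lay below its lowest WT library, 1306.6. MRPS33 had -0.20 (adjusted p = 0.0264), and it was not called without WT replicate 1, WT replicate 3 or KO replicate 2 (adjusted p = 0.0874 to 0.124). MRPS18B, of a family of 3 small paralogs of which MRPS18A is placed in the large subunit, had -0.16 (adjusted p = 0.0197), and was not called without WT replicate 1 or KO replicate 2 or 3 (adjusted p = 0.0529 to 0.0837). Exons of RSPH9 on the opposite strand overlap 47.0% of those of MRPS18A. Its paralogs MRPS18A and MRPS18C had 0.09 (adjusted p = 0.324) and 0.23 (adjusted p = 0.0102), so the 3 related genes did not share a direction. MRPS14 had -0.18 (adjusted p = 0.0473) with overlapping groups.

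After 1 day of doxycycline, 0 of 77 members were higher than in KO cells (against 4.94% of all genes) and 6 were lower (7.79%, against 5.97% of all genes) in limma. The share of lower members was close to that of all genes. At an unadjusted p under 0.05, 0 were higher and 13 lower, and the authors' deposited adjusted p values gave 0 higher and 5 lower. The median log2 change was -0.07, against -0.01 for all genes. Without day 1 replicate 1 there were 12 lower and 1 higher, without KO replicate 1 there were 3 lower, and without day 1 replicate 2 there was 1 higher. Without day 1 replicate 1 and day 9 replicate 1 there were 14 lower, the 6 among them, and 1 higher, against 9.73% and 8.94% of all genes. Every comparison with KO cells shares the KO libraries with the comparison of KO and WT cells, and the values are given side by side without a test of their overlap.

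MRPS9 had the largest change here too, with 1636.9, 1463.9 and 1511.3 normalized counts at day 1, against 2013.0, 1950.8 and 2014.4 in KO cells. The log2 change was -0.38 (SE 0.05, adjusted p = 0.000142). MRPL50 fell to 676.9, 597.8 and 630.0 at day 1, against 741.5 to 833.0 in KO cells, a log2 change of -0.32 (adjusted p = 0.0026). In both genes no day 1 library reached the lowest KO library. MRPS25 had -0.28 (adjusted p = 0.000987). MRPS26, a small subunit protein with no bacterial counterpart, had -0.24 (adjusted p = 0.0369), which was lost at adjusted p = 0.0548 to 0.141 without any KO library or without day 1 replicate 2 or 3. MRPL21 had -0.22 (adjusted p = 0.0195), lost at adjusted p = 0.0533 to 0.116 without KO replicate 1 or 2 or day 1 replicate 2 or 3. MRPS35 had -0.15 (adjusted p = 0.0427), lost at adjusted p = 0.0725 to 0.184 without KO replicate 1 or 3 or day 1 replicate 2 or 3. It was also lost with only libraries of the same project code (0.0957), after scaling to equal medians (0.123) and with no filter on low values (0.0671). With only the 6 KO and day 1 libraries in the fit, MRPS26, MRPL21 and MRPS35 were not called (adjusted p = 0.0643, 0.111 and 0.197).

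**Figure D2:**
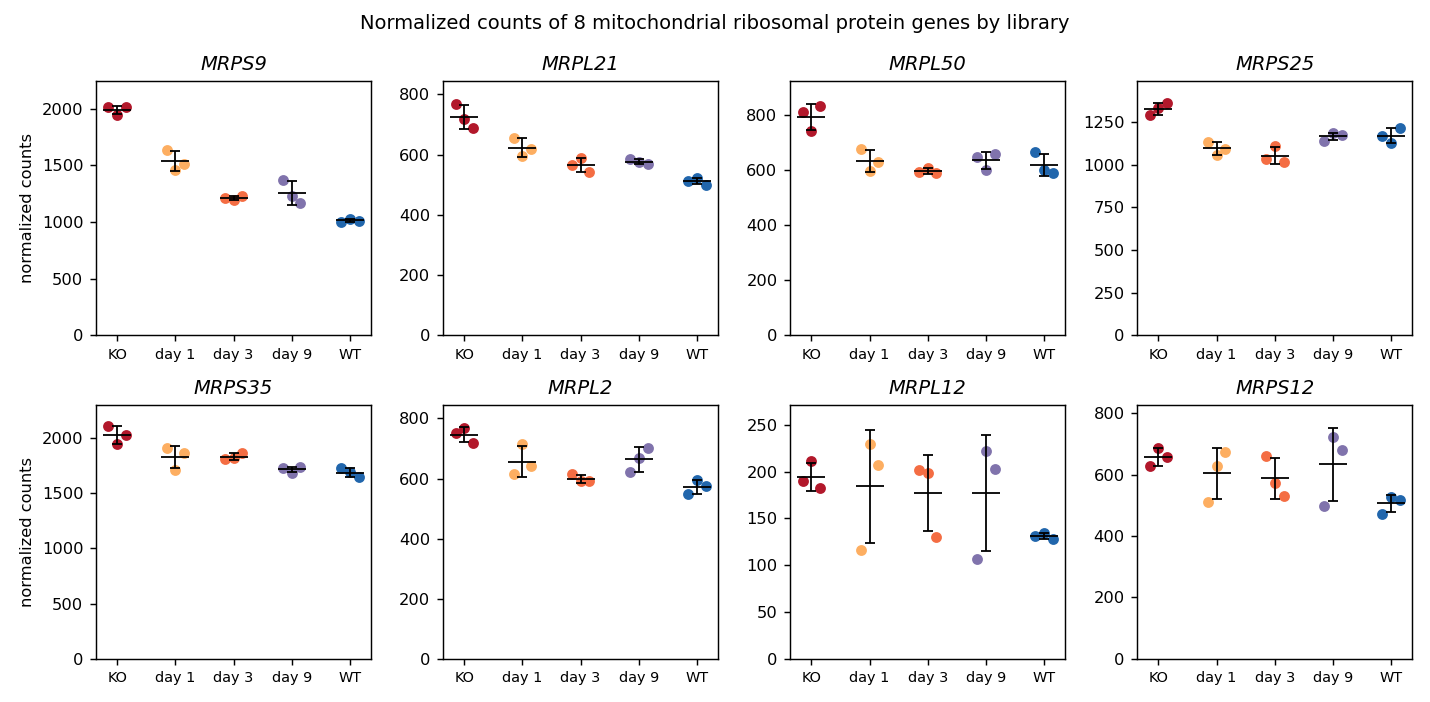
Normalized counts (y axis, from 0) of 8 members in each of 15 libraries, by group (x axis: KO without doxycycline, KO with doxycycline for 1, 3 or 9 days, WT). Points are libraries, lines the mean and bars the SD (n = 3); MRPS9 is near 2000 in KO cells and near 1000 in WT cells, and MRPL12 has 1 low library in each doxycycline group.

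At day 3, 0 of 77 members were higher than in KO cells (against 13.5% of all genes) and 13 were lower (16.9%, against 13.9% of all genes) in limma. At an unadjusted p under 0.05, 3 were higher and 21 lower, and the authors' deposited values gave 0 higher and 11 lower. The median log2 change was -0.06, against 0.01 for all genes. The lower members included 6 of 30 large subunit members with a bacterial counterpart and 1 of 21 without. In the small subunit the counts were 3 of 15 (20.0%) and 3 of 11 (27.3%). Differences between these classes were not tested. Without KO replicate 1 the lower members numbered 6, and without day 3 replicate 2 there was 1 higher. With only the 6 KO and day 3 libraries in the fit, 20 were lower and 1 was higher. In the fit without day 1 replicate 1 and day 9 replicate 1, 22 were lower and 2 higher, against 18.8% and 18.6% of all genes.

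MRPS9 fell to 1215.6, 1196.5 and 1230.3 normalized counts at day 3, against 1950.8 to 2014.4 in KO cells. The log2 change was -0.71 (SE 0.05, adjusted p = 3.98e-09), and no call was lost when any KO or day 3 library was left out. MRPL50 had 592.0, 608.2 and 591.8 at day 3, a log2 change of -0.41 against KO cells (adjusted p = 7.14e-05). MRPL21 had 566.2, 587.3 and 542.0, a change of -0.36 (adjusted p = 0.000102). In each of the 3 genes the highest day 3 library was below the lowest KO library by more than the range of the day 3 libraries. MRPS25 had -0.34 (adjusted p = 3.23e-05) and MRPL2 had -0.32 (adjusted p = 0.000843). MRPS2, the counterpart of a bacterial small subunit protein, had -0.24 (adjusted p = 0.0319), a call lost whichever KO or day 3 library was left out (adjusted p = 0.0513 to 0.13). MRPL3 had -0.17 (adjusted p = 0.00993, and 0.0507 without KO replicate 1). MRPS5 had -0.16 (adjusted p = 0.0345) with overlapping groups. That call was lost without KO replicate 1 or 3 or day 3 replicate 1 or 3 (adjusted p = 0.0873 to 0.173). After scaling to equal medians MRPS5 and MRPS35 were not called (adjusted p = 0.0658 and 0.0606). MRPS35 had -0.15 (adjusted p = 0.0238), not called without KO replicate 1 or 3 or day 3 replicate 1 or 2 (adjusted p = 0.0639 to 0.117).

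At day 9, 0 of 77 members were higher than in KO cells (against 12.4% of all genes) and 7 were lower (9.09%, against 13.4% of all genes) in limma. The share of lower members was below that of all genes. At an unadjusted p under 0.05, 3 were higher and 13 lower, and the authors' deposited values gave 0 higher and 6 lower. The median log2 change was -0.06, against 0.0 for all genes. Without KO replicate 1 or day 9 replicate 1 there was 1 higher. With only the 6 KO and day 9 libraries, 12 were lower and 1 higher (MRPL16). In the fit without day 1 replicate 1 and day 9 replicate 1, 15 were lower and 1 higher, against 16.6% and 15.4% of all genes.

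MRPS9 had 1370.5, 1231.5 and 1168.3 normalized counts at day 9, with a log2 change of -0.67 against KO cells (SE 0.05, adjusted p = 9.42e-09). MRPL21 had 586.2, 575.1 and 569.2, a change of -0.33 (adjusted p = 0.000243), and MRPL50 had 647.0, 601.9 and 660.8, a change of -0.32 (adjusted p = 0.000881). These 3 were below every KO library. MRPL32 had -0.26 (adjusted p = 0.00286), MRPS35 -0.24 (adjusted p = 0.000548) and MRPS25 -0.19 (adjusted p = 0.00786). MRPL3 had -0.14 (adjusted p = 0.038), which was not called without KO replicate 1 or 3 or without any day 9 library (adjusted p = 0.0619 to 0.141). Among the members that were lower in KO than in WT cells, MRPL16 had 0.14 at day 9 against KO (adjusted p = 0.0559, and 0.023 without KO replicate 1) and MRPL48 had 0.19 (adjusted p = 0.0566, and 0.0461 without day 9 replicate 1).

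**Figure D3:**
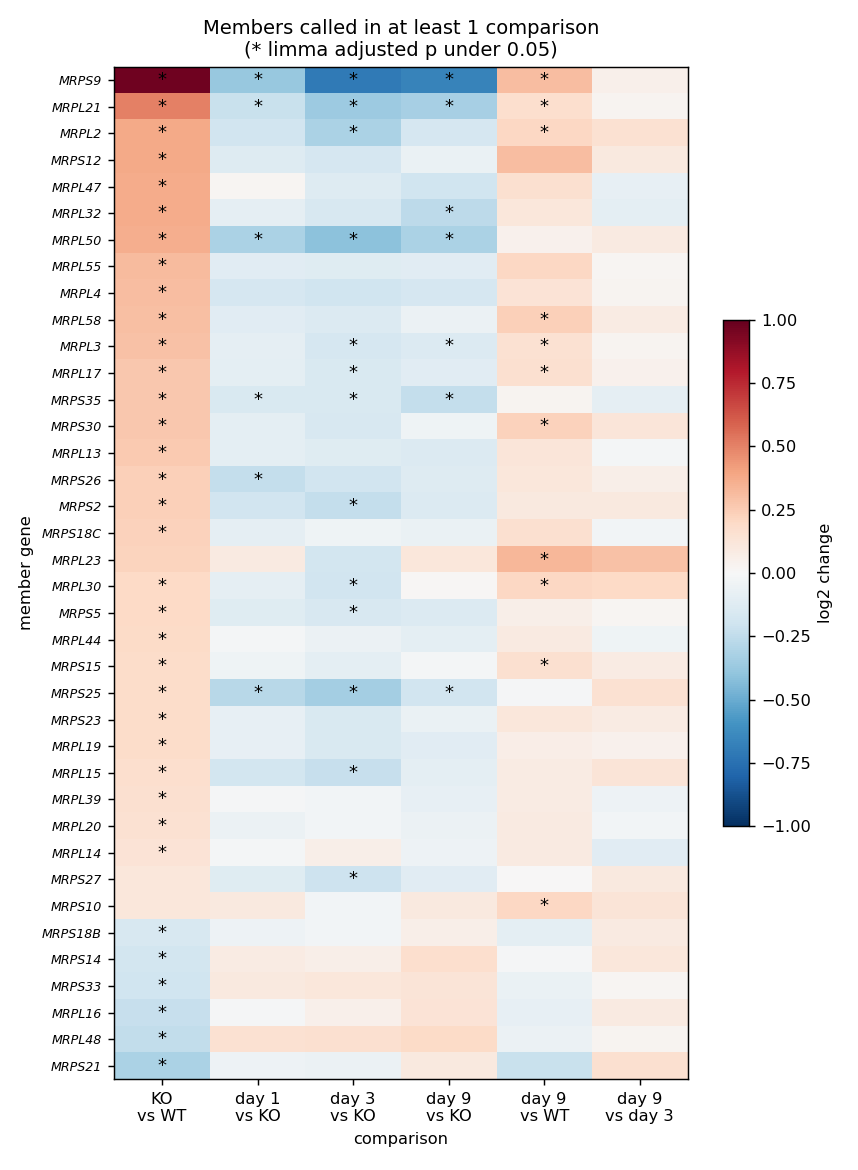
Log2 change (colour) of every member called in at least 1 of the 6 comparisons (rows, ordered by the change in KO against WT), with comparisons as columns and * marking an adjusted p under 0.05 in limma. Columns 2 to 4 share the KO libraries with column 1; MRPS9 and MRPL21 are called in the first 5 columns, and no member is called in the last.

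Against WT cells, day 9 cells still had 11 of 77 members higher (14.3%, against 10.4% of all genes) and 0 lower (against 11.4% of all genes) in limma. At an unadjusted p under 0.05, 15 were higher and 2 lower, and the median log2 change was 0.06, against 0.0 for all genes. MRPS9 was 0.31 higher at day 9 than in WT cells (SE 0.05, adjusted p = 0.000328), with every day 9 library above the WT libraries. MRPL58 had 0.24 (adjusted p = 0.00807) and MRPS30 0.23 (adjusted p = 0.0123, and 0.0583 to 0.0823 without day 9 replicate 2 or WT replicate 3). MRPL30 had 0.21 (adjusted p = 0.0158). MRPL23, at the peptide exit, had 0.33 (adjusted p = 0.04), which was lost at 0.0501 to 0.191 without any of the 6 libraries but WT replicate 3. MRPL2 had 0.21 (adjusted p = 0.0208), lost at 0.0542 to 0.106 without WT replicate 1 or 3 or day 9 replicate 2 or 3. MRPS10 had 0.21 (adjusted p = 0.0454), lost at 0.0945 to 0.199 without any but day 9 replicate 3. MRPL21 had 0.17 (adjusted p = 0.0376), lost at 0.0651 to 0.12 without any of the 6, and MRPL3 had 0.15 (adjusted p = 0.0242), lost at 0.0655 to 0.0838 without any but day 9 replicate 1. The count was 4 without day 9 replicate 2 or 3 or without any WT library, 7 after scaling libraries to equal medians, and 20 without day 1 replicate 1 and day 9 replicate 1, against 15.4% of all genes. A single member, MRPS21, was lower in that last fit, and 1 was lower without WT replicate 2 or day 9 replicate 1.

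Between day 9 and day 3, where both groups carry the same project code, 0 of 77 members were higher (against 3.03% of all genes) and 0 lower (against 4.39% of all genes) in limma. At an unadjusted p under 0.05, 6 were higher and 1 lower, and the median log2 change was 0.03. MRPS9 had 0.05 (adjusted p = 0.666), so its level at day 9 did not differ from that at day 3 beyond the spread. There was 1 higher without day 3 replicate 2 and 1 lower without day 9 replicate 1. Without day 1 replicate 1 and day 9 replicate 1, 4 were higher and 2 lower, against 7.14% and 8.39% of all genes.

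Summed over the 78 members, transcripts took 0.46 to 0.474% of the normalized counts in KO libraries, 0.44 to 0.449% at day 1, 0.432 to 0.447% at day 3, 0.452 to 0.459% at day 9 and 0.43 to 0.436% in WT libraries. The KO libraries were the highest and did not overlap any other group, though day 9 lay close below them. Large subunit shares of KO and day 9 libraries overlapped. The large subunit members took 0.287 to 0.296% in KO and 0.271 to 0.274% in WT libraries, and the small subunit members 0.173 to 0.179% and 0.159 to 0.163%. The summed colorectal epithelial markers were also higher in KO libraries, at 136796.3 to 141254.1 normalized counts, with 118524.4 to 134496.5 at day 1, 129121.5 to 139490.8 at day 3, 92653.1 to 97513.6 at day 9 and 89132.6 to 90785.0 in WT libraries. At day 3 the markers overlapped KO libraries and the members' share did not. Their part in the members' levels was not tested.

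**Figure D4:**
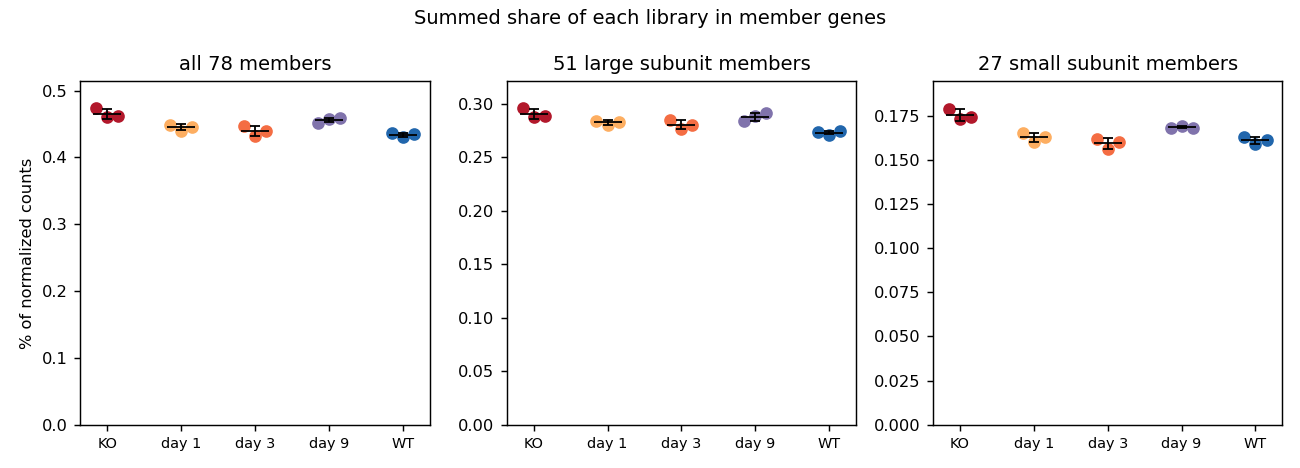
Share of each library's normalized counts (y axis, percent, from 0) taken by all 78 members, the 51 large subunit members and the 27 small subunit members, by group. Points are libraries, lines the mean and bars the SD (n = 3); the KO libraries are the highest for all members (0.46 to 0.474%) and for the small subunit, and overlap day 9 for the large subunit.

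Lists of related genes are read against the shares of all genes in KO against WT cells, 24.8% higher and 24.8% lower. Of 17 translation factors, 7 were higher (41.2%) and 2 lower (11.8%), and of 23 ribosome assembly factors 9 were higher (39.1%) and 2 lower (8.7%). TUFM, the elongation factor that brings transfer RNA, averaged 6236.7 ± 173.2 in KO cells and 4990.1 ± 65.9 in WT cells (SD, n = 3 each), a log2 change of 0.32 (adjusted p = 7.71e-06). SLIRP, which with LRPPRC stabilises mitochondrial messenger RNA, had 0.40 (adjusted p = 3.25e-05). The assembly factors MTERF4 and NGRN were lower, at -0.32 (adjusted p = 2.42e-05) and -0.35 (adjusted p = 0.00113). Of 21 aminoacyl-tRNA synthetase genes and subunits 8 were higher (38.1%) and 4 lower. IARS2, which charges transfer RNA with isoleucine, had 1729.2 ± 37.7 in KO cells and 3270.1 ± 100.6 in WT cells (SD, n = 3 each), a log2 change of -0.92 (adjusted p = 1.14e-11).

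Of 13 protein-coding mitochondrial DNA genes, whose messages mitochondrial ribosomes translate, 2 were higher (15.4%) and 4 lower (30.8%) in KO against WT cells. These shares were near those of all genes, 24.8% each, and the log2 changes lay between -0.64 (MT-ND1, adjusted p = 1.91e-06) and 0.31. At days 1 and 3 against KO cells 0 of 13 were called in limma (2 and 1 at an unadjusted p under 0.05), and at day 9 MT-CYB had -0.17 (adjusted p = 0.0217), with overlapping groups. Against WT cells, day 9 cells had 1 higher (against 10.4% of all genes) and 5 lower (38.5%, against 11.4% of all genes).  Of 11 genes of the mitochondrial protease and chaperone response 8 were higher (72.7%) and 0 lower in KO cells (8 and 0 at an unadjusted p under 0.05), HSPA9, the matrix HSP70, by 0.39 (adjusted p = 5.98e-07). At day 3 and at day 9, 5 of the 11 (45.5%) were lower than in KO cells, against 13.9% and 13.4% of all genes. Of 18 genes listed as ATF4, a stress-response factor, and its targets, 7 were higher (38.9%) and 3 lower (16.7%) in KO against WT cells. In the same comparison, of 5 ribosomal proteins whose symbols fall outside the MRPL and MRPS pattern 2 were higher and 1 lower.

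Of 8 genes known to control nuclear genes for mitochondria, 4 were higher and 1 lower in KO against WT cells, against 24.8% of all genes in each direction. MYC, a transcription factor that drives ribosome and mitochondrial genes, averaged 4027.6 ± 83.6 in KO cells and 1941.1 ± 57.6 in WT cells, a log2 change of 1.05 (adjusted p = 7.67e-12). PPARGC1B, a coactivator of mitochondrial biogenesis, had 492.2 ± 16.3 and 233.9 ± 9.3, a change of 1.07 (adjusted p = 1.17e-10). The KO and WT libraries of both genes did not overlap. Against KO cells, MYC had -0.63 at day 1, -0.98 at day 3 and -0.65 at day 9, and PPARGC1B had -0.45, -0.84 and -0.55, all with adjusted p under 0.05. NRF1, a factor that binds promoters of respiratory genes, had 0.19 in KO against WT cells (adjusted p = 0.0143). Not all regulators ran this way. GABPB1 averaged 568.2 ± 11.4 in KO cells and 637.0 ± 25.3 in WT cells, and YY1 2279.2 ± 54.4 and 2237.5 ± 55.4. Of 10 genes for transcription and upkeep of mitochondrial DNA, 3 were higher and 2 lower, shares near those of all genes. TFAM, which packages mitochondrial DNA, had -0.24 (adjusted p = 0.0102), while TWNK, the mitochondrial DNA helicase, had 0.57 (adjusted p = 5.08e-07). The part of these regulators in the members' levels was not tested.

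**Figure D5:**
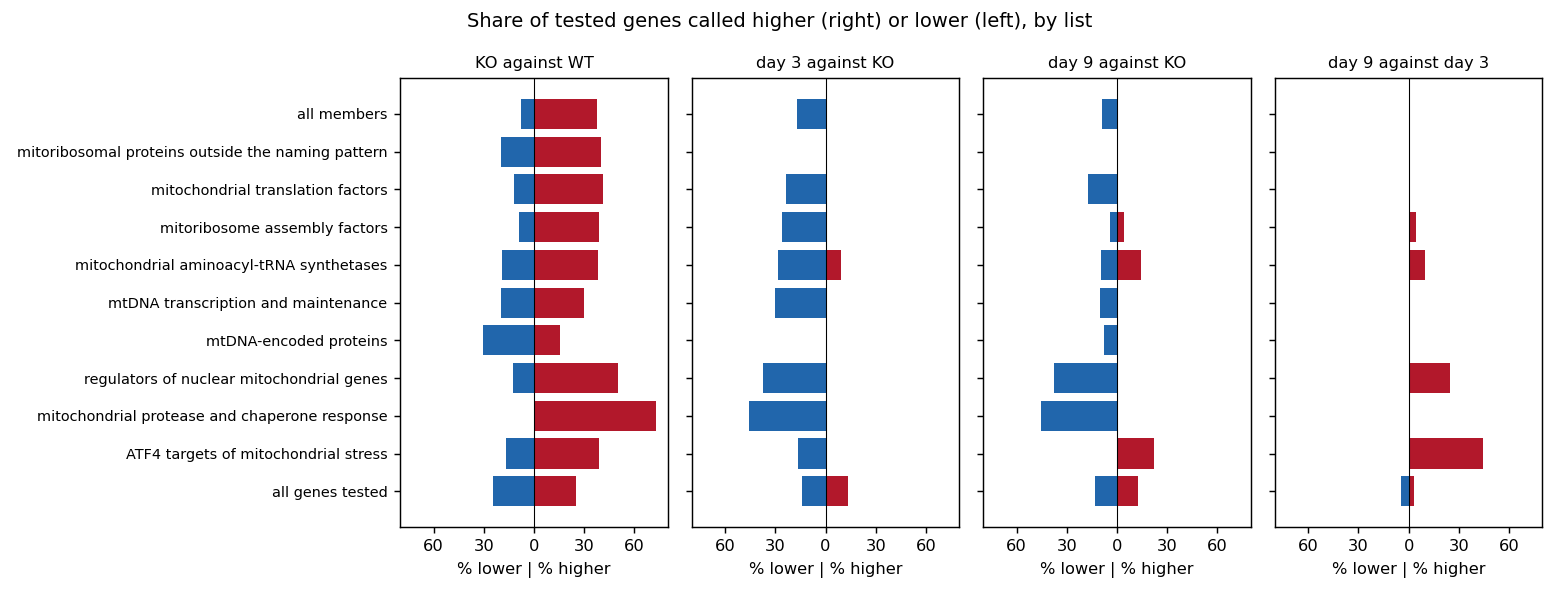
Percent of tested genes called higher (red, right) or lower (blue, left) in limma for the members, 9 related gene lists and all 15134 genes (rows), in KO against WT, day 3 against KO, day 9 against KO and day 9 against day 3 (panels). Members were called higher at 37.7% in KO against WT cells (all genes 24.8%) and lower at 16.9% at day 3 against KO cells (all genes 13.9%).

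In the GRCh38 annotation, 18 of the 77 tested members (23.4%) share a divergent start region with a protein-coding gene on the opposite strand within 1000 bases, against 1370 of 12461 tested protein-coding genes. Members and their partners could be set side by side in KO against WT cells. MRPL21 had 0.50 and its partner IGHMBP2 0.27 (adjusted p = 0.00418), so both were higher. MRPL50 had 0.36 and ZNF189 0.10 (adjusted p = 0.255), and MRPL32 had 0.37 and PSMA2, a proteasome subunit, 0.13 (adjusted p = 0.234). A pair of partners was lower where the member was higher, MITD1 at -0.21 (adjusted p = 0.0131) beside MRPL30 at 0.20, and HELQ at -0.28 (adjusted p = 0.017) beside MRPS18C at 0.23. MRPL46 and MRPS11 are each other's partners, with 0.11 (adjusted p = 0.335) and -0.01 (adjusted p = 0.912). Differences between members and partners were not tested, and exons of MRPS18C overlap those of ABRAXAS1 over 40.2% of their bases.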

How the data were processed

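Poly(A) RNA of 15 libraries (5 groups of 3) was sequenced with a strand-marking kit, per the labels' protocols. The authors aligned reads to hg19 with HISAT2 2.1.0, and HTSeq and DESeq2 are also named, per the submitters' processing notes. The versions of the last pair, the annotation and the strand setting are not stated in the sources at hand, so genes with overlapping exons are uncertain. The deposited values are normalized counts (a signal: counts divided by a size factor for each library). The deposited table also holds the authors' log2 fold changes and adjusted p-values for 4 comparisons.

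Of 22706 genes 1 was left out for a cell with text. Genes with at least 10 normalized counts in at least 3 libraries (15134) were tested on log2(value + 1) with limma 3.58.1 and statmod 1.5.0 in R 4.3.3. The fit held 5 group means over all 15 libraries, with a trended and robust spread. P-values are two-sided and Benjamini-Hochberg adjusted over all genes tested, with a threshold of 0.05, and log2(value + 1) understates the change of low genes. The procedure was tested on simulated counts drawn independently, with the same setting of the spread for every gene. That test does not cover deviations shared by the genes of a library. Tables and figures were made in Python 3.11.15 with pandas 2.3.3, numpy 2.4.6 and matplotlib 3.10.9. The number of reads sequenced per library is not stated. Counts were not rebuilt from the normalized values.

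The members and gene lists were chosen with earlier results of these data known. Genes named are, for each comparison, up to 6 called members with the largest change in each direction whose groups do not overlap, members with set roles, members that failed the filter, and up to 4 genes for each related list. A gene of the related lists is not reported here. Other members were named after their values were seen. Alternatives were another scaling, other filters and pseudocounts, a replicate block, fits of 6 libraries and leaving out each library. Fits within a project code and without day 1 replicate 1 and day 9 replicate 1, as well as the neighbour and exon overlap checks (GENCODE release 29, GRCh38), were added after the data were seen. The main fit did not pair libraries by replicate number.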

Additional observations from a re-analysis of the deposited data

Results flagged for a closer look

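No member differed between day 9 and day 3 by the test of the difference in limma over all genes, but some genes of the related lists did, against 3.03% of all genes higher and 4.39% lower. Higher were 1 of 23 assembly factors (4.35%, near the share of all genes), 2 of 21 synthetase genes and 2 of 8 regulators. In the list of ATF4 targets, which also holds ATF4 itself, 8 of 18 were higher. In these 4 lists 0 were lower (0, 0, 0 and 1 at an unadjusted p under 0.05). Of 7 colorectal epithelial markers 1 was higher and 3 were lower. Values are log2 changes of day 9 against day 3. Among genes of mitochondrial translation, the assembly GTPase NOA1 had 0.21, and the synthetase genes NARS2 and GARS1 had 0.22 and 0.17. Among regulators, MYC had 0.32 and PPARGC1B 0.29. Among ATF4 targets, PHGDH, PSAT1 and MTHFD2, enzymes of serine and one-carbon metabolism, had 0.52, 0.29 and 0.21. In the same list VLDLR had 0.49, PCK2 0.34 and TRIB3 0.25, with ATF4 itself at 0.20 and SHMT2 at 0.19.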

How the results depend on the processing

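Of the values of named members under the alternatives, 2119 kept their side of the threshold, 89 lost a call, 54 gained one and 0 calls reversed. Values not called in either fit were counted as kept whatever their direction. With any 1 library of the compared groups left out, higher and lower members numbered 23 to 27 and 3 to 6 in KO against WT (median log2 change 0.11 to 0.14), 0 to 1 and 3 to 12 at day 1 against KO (-0.07 to -0.04), 0 to 1 and 6 to 11 at day 3 against KO (-0.09 to -0.05), 0 to 1 and 6 to 8 at day 9 against KO (-0.06 to -0.04), 4 to 9 and 0 to 1 at day 9 against WT (0.06 to 0.07), and 0 to 1 and 0 to 1 at day 9 against day 3 (0.02 to 0.05). With only the 6 libraries compared, 3 were lower at day 1, 20 lower and 1 higher at day 3 and 12 lower and 1 higher at day 9 against KO, 1 was lower at day 9 against WT and 1 higher at day 9 against day 3, where 1 was also higher within the project code. Scaling to equal medians left 7 higher at day 9 against WT. A filter of 50 gave 1 lower there and 1 higher at day 9 against day 3, and a pseudocount of 5 gave 1 lower at day 9 against WT. With the replicate block, 1 was higher at day 3 and 1 at day 9 against KO, 1 lower at day 9 against WT and 1 higher at day 9 against day 3, and calls over all genes in KO against WT were 3997 higher and 3939 lower, against 3759 and 3760 without it. The main fit did not pair libraries by number. Of 30 same-numbered pairs 6 had r over 0.1, and 8 of 15 libraries correlated best with their own number. The median r was 0.04 for same-numbered pairs and -0.02 for other pairs. The source of any effect shared by number was not tested. Without day 1 replicate 1 and day 9 replicate 1, higher and lower members were 1 and 14 at day 1, 2 and 22 at day 3 and 1 and 15 at day 9 against KO, 20 and 1 at day 9 against WT and 4 and 2 at day 9 against day 3. The causes of these shifts were not tested. Planned count tests with edgeR and DESeq2 were not run. The values are whole multiples of a step near 1 in each library, so this does not mean that such tests are impossible.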
